A study of Homo sapiens with 12 samples.

Results

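Inflammasomes are cytosolic complexes of myeloid cells in which a sensor protein, often through an adaptor, gathers and activates caspase-1. Caspase-1 matures the precursors of interleukin-1 beta and interleukin-18 and cuts gasdermin D, whose free end forms pores in the cell membrane, and the lytic death that can follow is called pyroptosis. These steps act on proteins already made, so mRNA levels give the supply of the parts and not the activity of the complex.

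The genes described here are NLRC4 and 9 further genes of that pathway, 10 of the 36866 genes in the deposited table, found by gene symbol. They are the sensors NLRC4, NAIP, NLRP3, NLRP1 and NLRP12, the adaptor PYCARD (also called ASC), caspase-1 (CASP1), gasdermin D (GSDMD) and the cytokine genes IL1B and IL18. NLRC4 was selected on its measured difference between honokiol and DMSO in U-937 cells, and the others were listed for their roles beside it. Its values in comparisons that use U-937 libraries are therefore a description without a test, and only its comparison in THP-1 cells was tested.

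Poly(A) mRNA was sequenced from THP-1 and U-937 cells, 2 established human acute myeloid leukemia lines of monocytic type, after 24 h with honokiol, a biphenol of magnolia bark, or with 0.1% DMSO, the solvent. Each of the 4 groups of line and treatment had 3 libraries, 12 in all. The labels list honokiol doses of 20 and 35 μM without saying which line received which, so a difference in response between the lines cannot be told apart from one of dose. The paper states at least 3 repeats for its experiments in general. Neither the labels nor its sequencing methods say that the libraries came from separate cultures. Without separate cultures, p-values measure only the spread between these libraries.

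The estimated counts summed to 57406966 to 75065752 per library. The first DMSO library of each line stood apart by its mitochondrial transcripts, 13.7% of all counts for THP-1 and 12.6% for U-937, whereas the remaining 10 libraries had 5.61% to 7.55%. All 10 monocytic markers were at an FPKM (a level scaled for transcript length and library size) of 1 or more in every THP-1 library and 8 of 10 in every U-937 library, where MPO, the granule peroxidase, lay between 0.06 and 0.17. The summed FPKM of the monocytic list in THP-1 was 654 to 840 with DMSO and 667 to 740.0 with honokiol. In U-937 it was 578 to 901 with DMSO and 493 to 574 with honokiol. LYZ was the largest part of the U-937 sum, with a mean FPKM of 489 with DMSO and 282 with honokiol. Means of CD33 and CEBPA were also lower with honokiol there, and those of CD14, CD68, CSF1R, SPI1, MPO, ITGAM and FCGR1A higher. The part of these differences in the results was not tested. The 6 listed markers of other cell types summed to at most 3.92 in any library, and CD3D was listed at 0 in 11 of 12.

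NLRC4 (chr2:32224453-32265732, minus strand, GRCh38) and IL1B (chr2:112829751-112836816, minus strand) lie on chromosome 2, and NLRP12 (chr19:53793741-53824394, minus strand) on chromosome 19. The 250 bases before the RefSeq start sites of these 3 genes (assembly GRCh38.p14) are shown because NLRC4 and NLRP12 had the largest fitted honokiol differences of the 10 genes in U-937 and IL1B varied most between libraries. Capitals mark, on either strand, GAGGAA, the core bound by the myeloid factor PU.1, and TTGCNNAA, a C/EBP-type sequence. They stand, 5′ to 3′, for NLRC4 (chr2:32265744-32265993), NLRP12 (chr19:53824315-53824564) and IL1B (chr2:112836780-112837029):
NLRC4: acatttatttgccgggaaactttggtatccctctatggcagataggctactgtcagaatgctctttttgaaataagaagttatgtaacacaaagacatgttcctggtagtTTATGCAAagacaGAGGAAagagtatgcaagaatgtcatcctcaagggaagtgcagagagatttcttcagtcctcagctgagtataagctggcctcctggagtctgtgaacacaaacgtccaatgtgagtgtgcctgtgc
NLRP12: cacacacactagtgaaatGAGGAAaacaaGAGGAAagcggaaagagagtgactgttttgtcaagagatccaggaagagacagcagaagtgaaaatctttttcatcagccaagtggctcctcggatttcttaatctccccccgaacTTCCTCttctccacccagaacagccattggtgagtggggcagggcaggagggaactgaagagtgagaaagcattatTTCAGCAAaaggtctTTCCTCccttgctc
IL1B: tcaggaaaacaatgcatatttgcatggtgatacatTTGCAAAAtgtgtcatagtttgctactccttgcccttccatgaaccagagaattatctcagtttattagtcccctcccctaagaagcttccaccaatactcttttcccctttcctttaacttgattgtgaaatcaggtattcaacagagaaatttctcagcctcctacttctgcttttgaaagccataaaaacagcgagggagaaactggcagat

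The NLRC4 window held 1 GAGGAA at positions -127 to -122 from the start site and 1 C/EBP-type sequence at -140 to -133. The NLRP12 window held 4 GAGGAA matches and 1 C/EBP-type match, and the IL1B window a C/EBP-type match alone. Of 35116 such windows in RefSeq, 23.6% held GAGGAA and 9.05% the C/EBP-type sequence. TATAAA (10.7% of windows) and the AP-1 sequence TGANTCA (6.57%) were searched as well and matched none of the 3 windows, and no matches overlapped. RefSeq windows were at hand for 5 of the 10 genes.

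**Figure D1:**
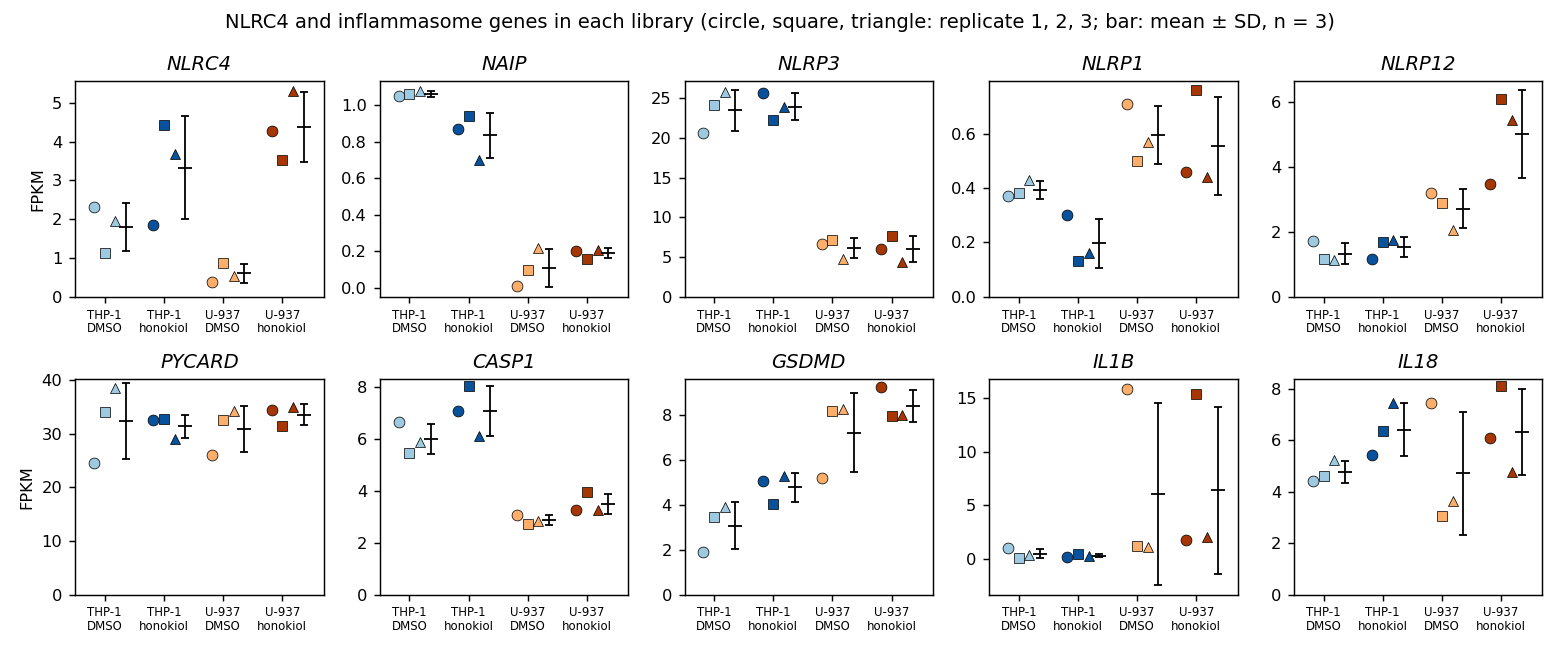
FPKM of each gene (y axis, from 0 or below where the SD crosses it) in the 12 libraries, grouped by line and treatment; symbols are replicates 1, 2 and 3 and bars the mean ± SD (n = 3). By mean, NLRC4 was lowest in U-937 with DMSO (0.39 to 0.87) and highest in U-937 with honokiol (3.52 to 5.31), the difference on which it was selected. IL1B stood at 15.86 and 15.36 in 2 U-937 libraries, 1 of each treatment.

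NLRC4 encodes the adaptor-like sensor that assembles with NAIP when bacterial flagellin or secretion system proteins are present. In U-937 its FPKM was 0.39, 0.87 and 0.55 in DMSO replicates 1 to 3 and 4.28, 3.52 and 5.31 in honokiol replicates 1 to 3. The lowest honokiol library thus lay above the highest DMSO library, and the log2 fold change was 2.77 (SE 0.33, 95% confidence interval 2.02 to 3.53). NLRC4 was selected on this difference, so the SE and interval take no account of the selection and do not stand for a test. Behind these values were estimated counts of 99 to 277 with DMSO and 921 to 1394 with honokiol, where a fragment is mostly worth 4 counts. Since the samples are bulk RNA, more cells that express a gene and more RNA per cell cannot be told apart.

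In THP-1, NLRC4 was at 2.31, 1.12 and 1.96 FPKM with DMSO and at 1.85, 4.43 and 3.69 with honokiol. Honokiol replicate 1 fell among the DMSO libraries, so the groups overlapped. The log2 fold change was 0.81 (SE 0.39, 95% interval -0.09 to 1.71) and was not called, with a Benjamini-Hochberg adjusted p of 0.416 by the quasi-likelihood test of edgeR. A call here needs an adjusted p under 0.05 and a log2 fold change over 1 in either direction.

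Ordered by mean FPKM, NLRC4 ran from U-937 with DMSO (0.603 ± 0.244, SD, n = 3) through THP-1 with DMSO (1.80 ± 0.612) and THP-1 with honokiol (3.32 ± 1.33) to U-937 with honokiol (4.37 ± 0.898). The lowest group did not overlap with its neighbour, while each of the later neighbours overlapped. On the log2 scale NLRC4 was lower by 1.64 in U-937 than in THP-1 with DMSO (log2 fold change -1.64, SE 0.40), and the honokiol difference was larger in U-937 than in THP-1 by 1.95 (SE 0.55), both as descriptions.

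NAIP encodes the receptor that binds the bacterial proteins for NLRC4. Its FPKM in THP-1 was 1.05, 1.06 and 1.08 with DMSO and 0.87, 0.94 and 0.70 with honokiol, so every honokiol library lay below every DMSO library. The log2 fold change of -0.41 (SE 0.19) was not called (edgeR adjusted p = 0.408). In U-937 NAIP was at 0.01, 0.10 and 0.22 with DMSO and 0.20, 0.16 and 0.21 with honokiol, under the limit for testing within that line (an FPKM of 0.5 in 3 libraries). NAIP lies in a duplicated stretch of chromosome 5 (chr5:70968166-71025339, minus strand) with partial copies, and how reads were split among them is uncertain.

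NLRP3, the sensor of potassium loss and membrane damage, was at 20.61, 24.06 and 25.69 FPKM in THP-1 with DMSO and 25.62, 22.24 and 23.87 with honokiol. In U-937 it was at 6.69, 7.14 and 4.76 with DMSO and 6.01, 7.62 and 4.40 with honokiol. The treatments overlapped in both lines, with log2 fold changes of -0.02 (95% interval -0.31 to 0.26) in THP-1 and -0.14 (-0.70 to 0.42) in U-937.

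NLRP12, a sensor family member best known as a restraint on inflammatory signaling in myeloid cells, was at 3.21, 2.88 and 2.05 FPKM in U-937 with DMSO and at 3.49, 6.11 and 5.45 with honokiol. The groups did not overlap in FPKM but did in CPM, here counts scaled for library size and for library composition by the TMM factors. Its log2 fold change was 0.78 (SE 0.27, 95% interval 0.16 to 1.41) with an edgeR p of 0.0196 before and 0.219 after adjustment, so it was not called. In THP-1 it was at 1.71, 1.16 and 1.13 with DMSO and 1.18, 1.69 and 1.75 with honokiol, a log2 fold change of 0.14 (SE 0.28). NLRP1, the sensor of proteases and of double-stranded RNA, was at most at 0.76 FPKM in any library. In THP-1 its honokiol libraries (0.13 to 0.30) lay below those with DMSO (0.37 to 0.43), under the limit for testing, and in U-937 its log2 fold change was -0.19 (SE 0.28).

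PYCARD, the adaptor that links sensors to caspase-1, was the most abundant of the 10 genes in every library, at 24.53 to 38.49 FPKM over the 12. Its group means ran from 30.9 to 33.6, and all neighbouring groups overlapped. The log2 fold change with honokiol was -0.09 (95% interval -0.46 to 0.28) in THP-1 and 0.04 (-0.27 to 0.35) in U-937. The gene overlaps the antisense PYCARD-AS1, and the strandedness of the counting is not stated, so their reads cannot be told apart.

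CASP1 was at 6.63, 5.46 and 5.88 FPKM in THP-1 with DMSO and 7.07, 8.04 and 6.11 with honokiol. In U-937 it was at 3.08, 2.71 and 2.82 with DMSO and 3.26, 3.94 and 3.26 with honokiol, without overlap in FPKM and with overlap in CPM. The log2 fold changes were 0.18 (SE 0.18) in each line; edgeR gave adjusted p of 0.689 (THP-1) and 0.645 (U-937). CASP1 shares near-identical sequence with its neighbour CARD16, so its counts are uncertain to that extent.

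GSDMD, the pore former, was at 1.88, 3.45 and 3.92 FPKM in THP-1 with DMSO and 5.06, 4.06 and 5.28 with honokiol, without overlap. The log2 fold change was 0.59 (SE 0.25, 95% interval 0.03 to 1.16), with an edgeR p of 0.0416 before and 0.364 after adjustment. The lowest value came from DMSO replicate 1, the library with 13.7% mitochondrial counts, and without it the log2 fold change was 0.37. In U-937 GSDMD was at 5.21, 8.21 and 8.29 with DMSO and 9.27, 7.97 and 8.03 with honokiol, where DMSO replicate 1 (12.6% mitochondrial counts) was again lowest. The log2 fold change there was 0.14 (SE 0.18), and -0.03 without that library. The part of the mitochondrial share in these values was not tested.

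IL1B, the cytokine precursor induced by NF-kappaB, was at 0.99, 0.12 and 0.39 FPKM in THP-1 with DMSO and 0.22, 0.43 and 0.32 with honokiol, under the limit for testing. In U-937 it was at 15.86, 1.25 and 1.13 with DMSO and 1.82, 15.36 and 2.01 with honokiol. A single library of each treatment was thus far above the others, with mitochondrial counts of 12.6% (DMSO) and 6.05% (honokiol). The log2 fold change of -0.09 had a 95% interval of -2.79 to 2.60. It became 2.33 without DMSO replicate 1, -1.79 without honokiol replicate 2 and 0.63 without both, and was called in none of these. IL18 was highest in the same libraries of U-937, at 7.43, 3.04 and 3.65 with DMSO and 6.10, 8.10 and 4.75 with honokiol (log2 fold change 0.31, SE 0.38). In THP-1 it was at 4.43, 4.60 and 5.24 with DMSO and 5.42, 6.36 and 7.46 with honokiol, without overlap (log2 fold change 0.37, SE 0.17, edgeR adjusted p = 0.403).

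**Figure D2:**
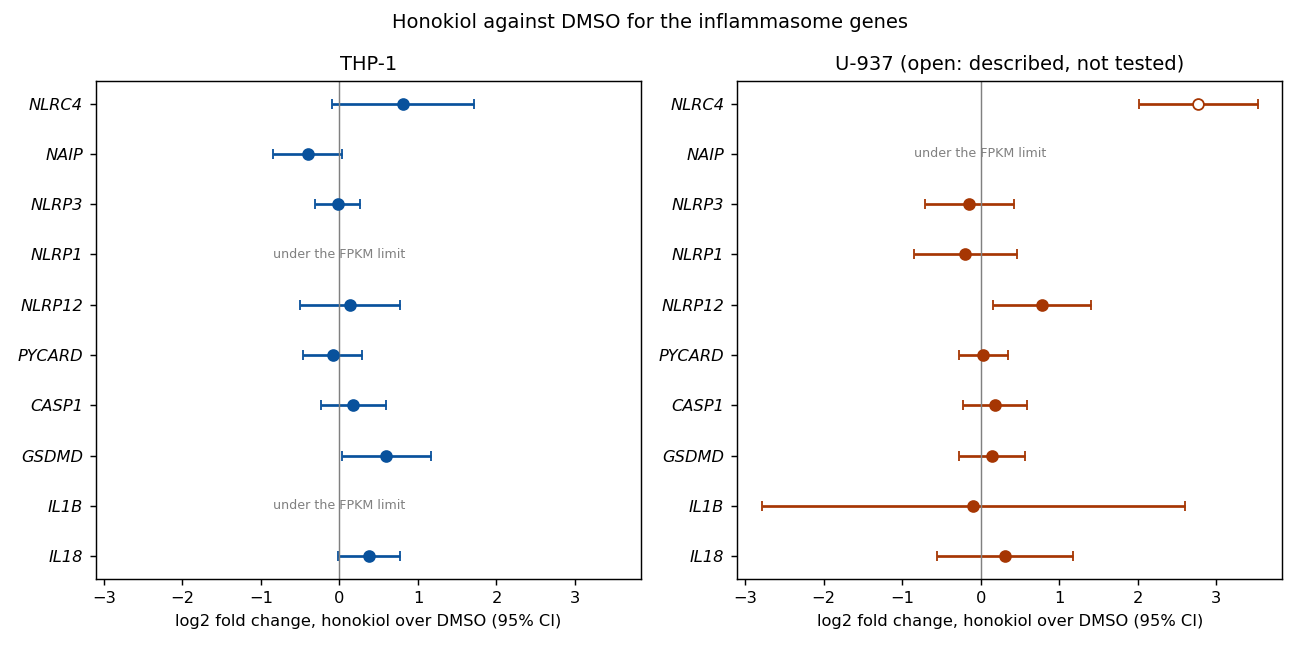
Log2 fold change of honokiol over DMSO (x axis) with its 95% confidence interval for each gene (rows) in THP-1 and U-937; the open point was described without a test. NLRC4 in U-937 (2.77) lies apart from all other points, which run from -0.41 to 0.81. It was selected on this difference, so its place apart is no result. IL1B has the widest interval (-2.79 to 2.60).

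Of the 8 genes that could be tested in THP-1, edgeR called 0, where 0.0411% of all 14600 tested genes were called. At an unadjusted p under 0.05 there was 1 (GSDMD), against 13.1% of all tested genes, and DESeq2 called 0, against 1.75%. In FPKM, 2 of the 8 (GSDMD, IL18) were higher with honokiol without overlap and 1 (NAIP) lower, against 13.0% higher and 7.62% lower among all tested genes, 20.6% together. The median log2 fold change was 0.16, against -0.001 over all tested genes.

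Of the 8 genes other than NLRC4 tested in U-937, edgeR called 0, where 0.0947% of 13726 genes were called. At an unadjusted p under 0.05 there was 1 (NLRP12), against 16.7% of all tested genes, and DESeq2 called 0, against 1.73%. In FPKM, 2 of the 8 (NLRP12, CASP1) were higher without overlap and 0 lower, against 16.7% higher and 7.50% lower among all tested genes, 24.2% together. Their median log2 fold change was 0.09, beside 0.02 over all tested genes. An exact permutation test of 3 against 3 libraries cannot go below p = 0.1.

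The lines were compared with DMSO alone. In U-937, NAIP (log2 fold change -3.36, SE 0.66), NLRP3 (-1.96, SE 0.21) and CASP1 (-1.10, SE 0.17) were lower than in THP-1. GSDMD (1.19, SE 0.23) and IL1B (3.55, SE 1.21) were higher. NAIP passed the FPKM limit through THP-1 alone and was at 0.01 to 0.22 in U-937 with DMSO. Its log2 fold change ran from -4.31 to -2.84 with 1 library left out. IL1B in turn was under the limit within THP-1. Adjusted p in edgeR was 0.00108 for NAIP, 9.7e-06 for NLRP3, 0.00019 for CASP1, 0.000995 for GSDMD and 0.0270 for IL1B. Thus 5 of the 9 genes other than NLRC4 were called, 2 higher and 3 lower in U-937, where 34.0% of 16283 tested genes were called, 14.4% higher in U-937 and 19.7% higher in THP-1. In FPKM 7 of the 9 did not overlap, against 56.7% of all tested genes.

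IL1B rested on U-937 DMSO replicate 1, the library with 12.6% mitochondrial counts, and its libraries overlapped in CPM. Without that library the log2 fold change of IL1B was 1.11 (edgeR adjusted p = 0.351). IL1B also missed the call without THP-1 DMSO replicate 2 or 3, with an adjusted p of 0.0832 and 0.0839. Without THP-1 DMSO replicate 1 (13.7% mitochondrial counts), CASP1 (-0.98) and GSDMD (0.96) fell short of the fold limit with adjusted p of 0.000667 and 0.00223. The part of the mitochondrial share in these values was not tested. NLRP12 was higher in U-937 by 0.97 (SE 0.29, edgeR adjusted p = 0.0143), just under the fold limit, and passed it without THP-1 DMSO replicate 1 (1.25) or U-937 DMSO replicate 3 (1.16). PYCARD (-0.11), IL18 (-0.04) and NLRP1 (0.55) were not called.

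**Figure D3:**
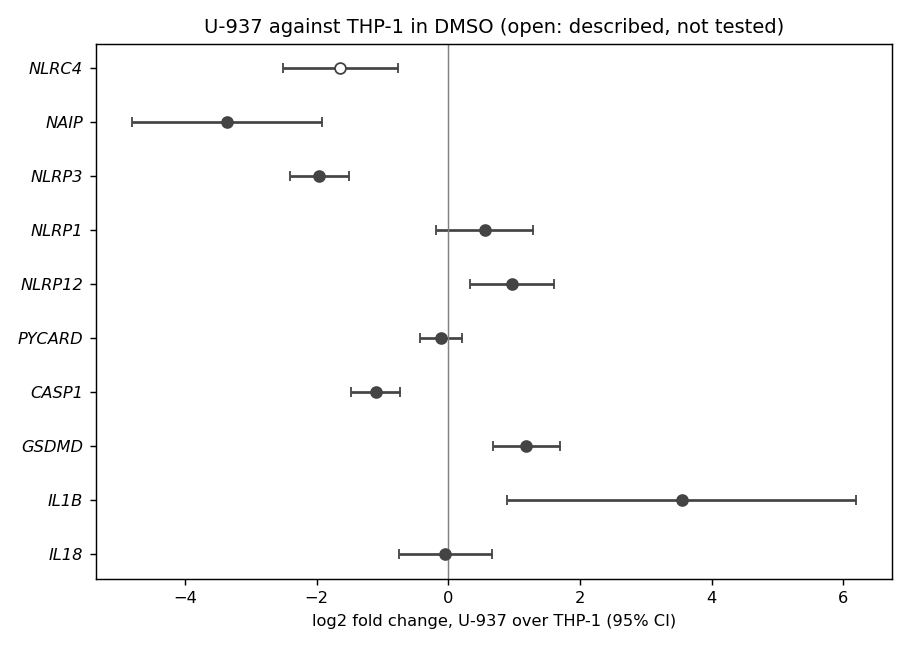
Log2 fold change of U-937 over THP-1 with DMSO (x axis) and its 95% confidence interval for each gene (rows); the open point was described without a test. NAIP (-3.36) and IL1B (3.55) lie at the ends, and IL1B has the widest interval, from 0.90 to 6.19.

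The honokiol difference was compared between the lines in a fit of all 12 libraries. Among the 9 genes other than NLRC4, edgeR called 0 at an adjusted p under 0.05, where 0.111% of 16283 genes were called, with 0 at an unadjusted p under 0.05 (9.37% of all tested genes) and 0 in DESeq2 (1.50%). The intervals were narrowest for PYCARD (-0.33 to 0.56) and CASP1 (-0.53 to 0.52) and widest for IL1B (-2.83 to 4.05). These intervals do not show that the lines respond alike.

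A further 61 genes of the pathway were followed, of which 58 were in the table: other sensors, regulators, other caspases and pore proteins, the interleukin-1 family with its receptors, and the receptors that prime the cytokine genes through NF-kappaB. In THP-1 edgeR called 0 of 43 with honokiol (0.0411% of all tested genes), 12 passed an unadjusted p under 0.05 (13.1% of all), and DESeq2 called 1, IL1RN (1.75% of all). IL1RN, the secreted antagonist of the interleukin-1 receptor, was at 6.07, 3.49 and 3.48 FPKM with DMSO and 1.14, 1.37 and 1.09 with honokiol, a log2 fold change of -1.93 (SE 0.30, edgeR adjusted p = 0.0814). The receptor IL1R1 (-0.96), the adaptor MYD88 (-0.90) and the pore protein gene GSDMB (1.16) had the next largest differences without overlap, with adjusted p of 0.205, 0.168 and 0.295 in edgeR. All 5 tested genes of the interleukin-1 family and receptors were lower with honokiol in their fitted values (median log2 fold change -0.33, against -0.001 over all tested genes), and edgeR called none of them. Lower as well were 8 of 10 other sensors, 7 of 15 regulators, 2 of 6 caspases and pore proteins and 3 of 7 priming genes. Among all tested genes 7310 of 14600 were lower.

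In U-937 edgeR called 0 of 41 of these genes (0.0947% of all tested genes). At an unadjusted p under 0.05 there were 5, a smaller share than the 16.7% of all tested genes, and DESeq2 called 3 (1.73% of all), which were TXNIP, P2RX7 and TLR4. TXNIP, a thioredoxin-binding arrestin that can bind NLRP3, was at 3.60, 5.64 and 4.93 FPKM with DMSO and 9.31, 12.60 and 14.47 with honokiol, a log2 fold change of 1.28 (SE 0.22, edgeR adjusted p = 0.0711). The ATP-gated channel P2RX7 (1.19, SE 0.33) and the endotoxin receptor TLR4 (1.03, SE 0.24) were higher without overlap, and the sensor family member NLRC3 (-0.81, SE 0.18) lower. Their adjusted p in edgeR was 0.161, 0.116 and 0.0995.

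**Figure D4:**
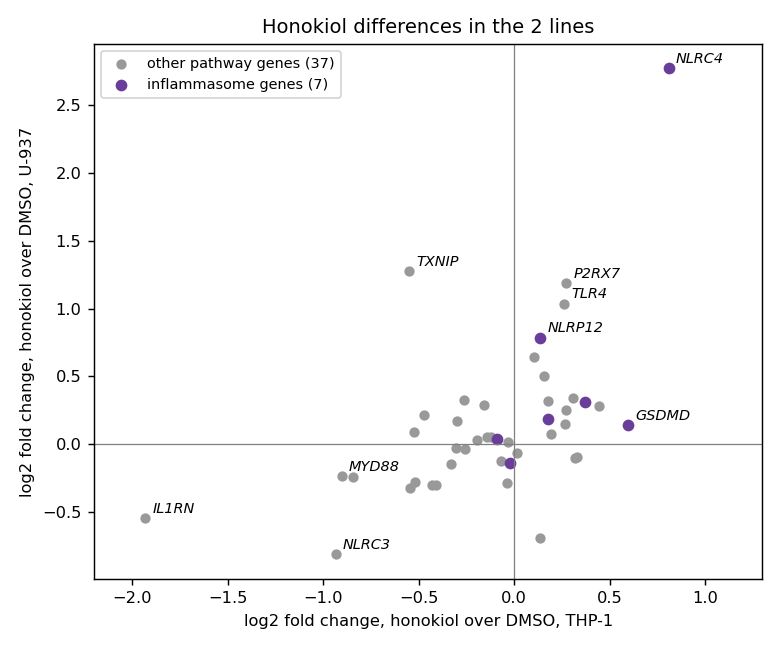
Log2 fold change of honokiol over DMSO in THP-1 (x axis) and in U-937 (y axis) for the 7 inflammasome genes and 37 other pathway genes past the FPKM limit in both lines; NLRC4 in U-937 is a description without a test. NLRC4 stands at the top right (0.81 and 2.77), IL1RN at the left (-1.93) and TXNIP above 0 in U-937 alone (-0.55 and 1.28).

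TXNIP was also the 1 pathway gene of 47 called for a different honokiol effect in the lines, where 0.111% of 16283 tested genes were called. Its difference was 1.82 (SE 0.25, edgeR adjusted p = 0.0274). In THP-1 it went from 42.01, 47.92 and 49.36 FPKM with DMSO to 36.40, 30.72 and 31.38 with honokiol. TXNIP was already known from earlier results of these data, so its p-value is not free of selection. The call was lost in 8 of the 12 fits that left out 1 library. The next smallest p belonged to NLRP7, IL18RAP and IL1RN (adjusted p of 0.360, 0.362 and 0.403), of which NLRP7 was listed at 0 in all 3 THP-1 libraries with honokiol.

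Between the lines with DMSO, 18 of 47 pathway genes were called, 4 higher and 14 lower in U-937, near the share of all tested genes (34.0%, with 14.4% higher and 19.7% lower in U-937). A share near that of all genes is no result about the pathway, and the genes are given for their own values. Of the other sensors, AIM2, the DNA sensor (2.92), and NLRP7 (7.39) were higher, and NLRP2 (-3.66), MEFV, which encodes pyrin (-2.27), and NOD2 (-1.45) were lower. NLRP7 and AIM2 were close to absent in THP-1 with DMSO, with estimated counts of 0 to 11 and 0 to 23, so their folds depend on the fitting. The 7 regulators called were all lower, among them TXNIP (-3.34), GBP5 (-3.06), CARD16, a decoy of caspase-1 (-3.04), GBP2 (-2.80) and P2RX7 (-1.95), with PRKCD (-1.24) and IRF8 (-1.32).

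The pore protein genes GSDME (-5.72) and GSDMB (-1.64) were lower, GSDME resting on estimated counts of 9 to 12 in U-937. Both chains of the interleukin-18 receptor, IL18R1 (2.56) and IL18RAP (3.41), were higher in U-937, IL18RAP resting on estimated counts of 4 to 27 in THP-1. IL1R1 (-1.98) and TLR2 (-1.44) were lower. Several of the genes called were under the FPKM limit within 1 line. These were AIM2, NLRP7, IL18R1 and IL18RAP in THP-1, and NLRP2, GBP2, GBP5, GSDME, GSDMB and IL1R1 in U-937. Adjusted p for the 18 genes ran from 8.77e-08 (NLRP2) to 0.0223 (AIM2) in edgeR.

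The 5 genes whose log2 FPKM followed NLRC4 most closely over the 12 libraries, among 13664 genes, were HSD17B4, an enzyme of peroxisomal fatty acid oxidation (Pearson r = 0.948), PHKB, a subunit of phosphorylase kinase (0.930), LPCAT3, which places polyunsaturated chains in phospholipids (0.930), ZFYVE16 (0.923) and FAM214A (0.918). HSD17B4 was at 6.20 ± 0.535 FPKM in U-937 with DMSO and 12.2 ± 2.79 with honokiol, and at 9.01 ± 0.666 and 11.4 ± 1.36 in THP-1 (SD, n = 3). The 12 points share 4 groups and include the U-937 libraries on which NLRC4 was selected, so r is a description.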

How the data were processed

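Poly(A) mRNA of 12 libraries was measured by paired-end sequencing. The authors deposited, per gene and library, an FPKM value, which corrects for transcript length and sequencing depth, and an estimated count, a whole number that the authors left unnormalized. The submitters' processing notes list HISAT2 2.0, StringTie 1.3.0 and Bowtie 0.12.2 and name a mouse build, while the coordinates in the table are those of human GRCh38, checked against GENCODE. The strandedness of the counting is not given in the sources used here.

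The genes and lists were chosen with earlier results of these data known. Genes reaching an FPKM of 0.5 in 3 or more libraries of a fit were tested with edgeR 4.0.16 (R 4.3.3) on the estimated counts, with TMM normalization, the quasi-likelihood test and Benjamini-Hochberg adjustment, and the scripts were tested on simulated data. Treatments were compared within the 6 libraries of a line, and lines in a fit of all 12. Besides the 10 genes, the text names every pathway gene called and the 4 with the largest difference without overlap (between responses, the 4 smallest p). Alternatives used DESeq2 1.42.0, limma 3.58.1 on log2(FPKM + 0.5) and log2(FPKM + 0.1), other filters and scalings, a replicate block and each library left out. Sums of estimated counts overstate the fragments, since a fragment is mostly worth 4 counts. The 3 genes of the lists missing from the table were not analysed here.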

Additional observations from a re-analysis of the deposited data

Results flagged for a closer look

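TXNIP was called for a different honokiol response in the lines, with a difference of 1.82 on the log2 scale (U-937 minus THP-1, SE 0.25, edgeR adjusted p = 0.0274). The gene was already known from earlier results of these data, so this p-value is not free of selection. TXNIP was lower in 3 of 3 honokiol libraries of THP-1 and higher in 3 of 3 of U-937 than in any DMSO library of the same line. The call was lost in 8 of the 12 fits that left out 1 library. It was also lost in limma with either pseudocount, with counts divided by 4, under the replicate block and without both DMSO replicate 1 libraries. The labels do not say which dose each line received, so line and dose cannot be told apart. NLRC4 had a difference of 1.95 (SE 0.55) in the same comparison, which was not tested because that gene was selected on U-937 libraries.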

How the results depend on the processing

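With honokiol, and for the difference between lines, 0 of the inflammasome genes tested were called in every alternative run (NLRC4 was tested in THP-1 only). Between the lines the 5 calls became 3 in limma-trend on log2(FPKM + 0.5), 4 in DESeq2, limma with 0.1 and the replicate block, 6 at any fold change and 4 to 6 with 1 library left out. DESeq2 called 1 pathway gene in THP-1, 3 in U-937 and 2 for the difference between lines, and unadjusted p-values, with the fold limit kept within lines, gave 2, 3 and 7. All 12 libraries in 1 fit called 1 in U-937. The single pathway call for the difference between lines became 0 under limma with either pseudocount, counts divided by 4, the replicate block and both DMSO replicate 1 libraries left out, and 0 to 1 with 1 library left out.

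Over all genes, the main counts of 6, 13 and 18 (THP-1, U-937, difference) became 250, 223 and 244 in DESeq2 and 408, 347 and 1525 without adjustment. A fit of all 12 libraries gave 33 and 108, an FPKM limit of 1 gave 1 in THP-1, and no filter or limma gave 0 there. For the difference, limma gave 2 and 1, counts divided by 4 gave 0 and both DMSO replicate 1 libraries left out gave 7. U-937 gave 0 without DMSO replicate 1 and honokiol replicate 2. Single libraries left out gave 0 to 43, 0 to 6 and 1 to 22. Between the lines the count of 5542 became 8610 at any fold change. The last sets of libraries left out, and the CPM scale, were chosen after seeing the data.

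The replicate block gave 0, 0 and 0 of all genes for the honokiol comparisons. Deviations from the group means were correlated between libraries of a line. For same-numbered libraries r was -0.155 to 0.0936 in THP-1 and -0.121 to -0.104 in U-937. Within a line the numbers thus did not mark libraries with a high r. Higher r joined other numbers. In THP-1, DMSO replicates 1 and 2 had 0.146 and 0.198 with honokiol replicates 2 and 1. In U-937, DMSO replicates 1, 2 and 3 had 0.172, 0.161 and 0.188 with honokiol replicates 2, 3 and 1. Between the lines, DMSO libraries numbered 1, 2 and 3 had 0.0954, 0.0285 and 0.113 with the same number. Honokiol libraries had -0.0305, -0.0332 and -0.0106. Whether libraries pair in any of these ways was not tested, and the main tests took them as unpaired.

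Directions that turned were all of uncalled genes. NLRP3 in THP-1 was 0.031 in limma with either pseudocount. IL1B in U-937 was 0.33 and 0.41 in limma, 0.53 under the replicate block and 0.63 without both outlying libraries. For the difference between lines, CASP1 was 0.021 and 0.037 in limma, and IL18 was 0.064 and 0.077 in limma, 0.035 under the replicate block and 0.47 without both DMSO replicate 1 libraries, where NLRP3 was 0.0024. With 1 library left out, the ranges were -0.079 to 0.028 (NLRP3) and -0.22 to 0.028 (PYCARD) in THP-1, and -0.33 to 0.033 (NLRP3), -0.054 to 0.098 (PYCARD), -0.032 to 0.23 (GSDMD) and -1.79 to 2.33 (IL1B) in U-937. They were -0.59 to 0.20 for IL18 between the lines. For the difference they were -0.33 to 0.040 (NLRP3), -0.0036 to 0.24 (PYCARD), -0.14 to 0.095 (CASP1), -1.10 to 3.04 (IL1B) and -0.32 to 0.47 (IL18). NLRC4 in U-937 ranged from 2.55 to 3.13 and was 2.15 in limma with a pseudocount of 0.5. IL1B between the lines missed the call in limma (adjusted p of 0.0820 and 0.0517) and under the replicate block (0.0765), and DESeq2 gave it no adjusted p. The cause of these changes was not tested. NAIP in U-937 and NLRP1 and IL1B in THP-1 were under the FPKM limit and not tested within those lines.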

Other observations

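Over the 12 libraries, as a description that includes the libraries on which NLRC4 was selected, Pearson r with NLRC4 on the log2 scale was 0.401 for IL18, 0.370 for CASP1, 0.270 for NLRP12, 0.247 for NAIP, 0.179 for PYCARD, 0.135 for NLRP3, 0.0515 for GSDMD and -0.137 for IL1B, and IL18, the closest, ranked 2265 among the genes searched. NLRP1 was under the limit of this search. AIM2 was at 1.17, 1.01 and 0.34 FPKM in U-937 with DMSO and at 0.69, 3.81 and 1.66 with honokiol, highest in the honokiol replicate with high IL1B.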
